A study of Mus musculus with 32 samples.

Results

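Tubulin isotypes were followed through cortical neurogenesis in single-cell RNA counts of the mouse embryonic dorsal telencephalon, the tissue that forms the cerebral cortex. The 10 genes encode the α-tubulins Tuba1a, Tuba1b and Tuba1c and the β-tubulins Tubb3, Tubb2a, Tubb2b, Tubb4a, Tubb4b, Tubb5 and Tubb6. They were chosen by gene symbol, and each symbol matched 1 of the 32285 genes in the deposited tables. Libraries came from WT embryos of strain C57BL/6J and from litter mates with a single intact copy of the chromatin remodeller gene Chd8 (Chd8+/-, here Chd8 het), taken at E12.5 and E14.5 and then at E16.0 and E17.5. Each genotype and stage had 4 libraries of individually processed embryos, named M1, M2, F1 and F2 after sex. The protocols state litter- and sex-matched pairs. A WT and a het library with the same name were taken as a pair, which gave 16 pairs. Dissection left out the medial wall of the telencephalon.

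Microtubules are built from dimers of α- and β-tubulin, each of which is encoded by several genes. Dividing progenitors need tubulin for the mitotic spindle, whereas a new neuron uses it for migration, for its axon and for its dendrites. Tubb3 is widely used as a marker of young neurons, and variants in human TUBA1A, TUBB2B and TUBB3 cause malformations of the brain.

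Cells were placed in classes by detection of at least 1 UMI (a tag that marks 1 captured RNA molecule) of a gene that is no tubulin. Sox2 marks apical progenitors (radial glia), Eomes marks intermediate progenitors, and Neurod6 marks excitatory neurons. The classes held 53954, 31723 and 85041 cells and could share cells: 15.8% of Sox2-detected cells at E12.5 and 38.8% to 44.1% at the later stages also had a Neurod6 UMI, and 62.4% to 83.0% of Eomes-detected cells did. Comparisons were therefore repeated in cells with a UMI of 1 class gene only, which left 32891 Sox2-only, 2581 Eomes-only and 53931 Neurod6-only cells. Of the markers for each class, 8 of 8 radial glial genes were highest in Sox2-detected cells, 8 of 8 intermediate progenitor genes in Eomes-detected cells and 7 of 8 excitatory neuron genes in Neurod6-detected cells. Sox2-detected cells also held the highest levels of 8 of 8 interneuron and 5 of 5 oligodendrocyte precursor markers, Neurod6-detected cells those of 6 of 6 endothelial, 4 of 5 pericyte and 4 of 5 Cajal-Retzius cell markers, and Eomes-detected cells those of 5 of 6 microglial markers. Counts were summed over the cells of a class in each library, and levels are given as CPM (a gene's UMIs scaled to a common total for every sum), so a share of cells and a level per cell cannot be told apart. Of 6 red blood cell markers 4 were highest in Neurod6-detected and 2 in Eomes-detected cells. Over both genotypes their sums ran from 39.97 to 11003 CPM in Sox2-detected, 36.3 to 12332 in Eomes-detected and 37.2 to 14393 in Neurod6-detected cells. Excitatory neuron markers summed to 1077 to 2427 CPM in Neurod6-detected cells. The source of the red blood cell RNA and its part in the isotype levels were not tested.

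The members lie at separate loci, as placed by the GENCODE annotation of build GRCm38. The 3 α genes are close together on chromosome 15, Tuba1b at 98931425 to 98934565 and Tuba1a at 98949837 to 98953703 on the minus strand and Tuba1c at 99029891 to 99038110 on the plus strand. Tubb2a (34074274 to 34078007) and Tubb2b (34126748 to 34130466) are neighbours on the minus strand of chromosome 13. Tubb5 (35833921 to 35838306) and Tubb4a (57080066 to 57087782) lie on the minus strand of chromosome 17, Tubb4b on the minus strand of chromosome 2 (25222160 to 25224702) and Tubb3 on the plus strand of chromosome 8 (123411424 to 123422015). To set genes that were higher in progenitors beside genes that were higher in neurons, the bases before the RefSeq start site are shown (build GRCm38.p6, 5′ to 3′ on the gene's strand). Windows of 250 bases were trimmed to bases outside annotated exons. Capitals mark CCAAT (the box bound by NF-Y) and TTTGAA, a form of the CHR element of cell cycle genes, on either strand. Tubb4b and Tuba1c were higher in progenitors, Tubb3 was higher in neurons, and Tubb2a is shown because its level in progenitors changed most with stage.
Tubb4b: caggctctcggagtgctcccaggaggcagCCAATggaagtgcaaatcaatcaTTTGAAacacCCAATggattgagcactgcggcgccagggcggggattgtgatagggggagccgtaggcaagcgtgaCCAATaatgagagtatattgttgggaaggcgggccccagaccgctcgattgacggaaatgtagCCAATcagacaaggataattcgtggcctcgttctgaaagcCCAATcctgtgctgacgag
Tuba1c: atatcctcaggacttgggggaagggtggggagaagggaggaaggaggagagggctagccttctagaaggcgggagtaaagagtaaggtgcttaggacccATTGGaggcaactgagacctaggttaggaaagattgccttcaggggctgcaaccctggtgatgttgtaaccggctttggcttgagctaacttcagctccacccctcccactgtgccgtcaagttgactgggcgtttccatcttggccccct
Tubb3: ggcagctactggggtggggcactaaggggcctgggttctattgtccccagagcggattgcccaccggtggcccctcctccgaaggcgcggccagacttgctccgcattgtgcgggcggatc
Tubb2a: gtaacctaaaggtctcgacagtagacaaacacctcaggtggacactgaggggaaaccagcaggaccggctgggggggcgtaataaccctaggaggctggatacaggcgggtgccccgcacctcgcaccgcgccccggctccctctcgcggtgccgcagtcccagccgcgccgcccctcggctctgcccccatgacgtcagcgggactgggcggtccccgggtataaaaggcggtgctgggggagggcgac
These stretches lie at chr2:25224703-25224952 on the minus strand (Tubb4b), chr15:99029641-99029890 on the plus strand (Tuba1c), chr8:123411303-123411423 on the plus strand (Tubb3) and chr13:34078009-34078258 on the minus strand (Tubb2a). Over whole windows, CCAAT occurred 5 times before Tubb4b, where 2.79% of 32851 promoters held it at least 3 times. TTTGAA also occurred once in that window, and 5.55% of promoters held both motifs. CCAAT occurred once each before Tuba1a, Tuba1c and Tubb3 and in 33.8% of promoters, and 2 copies lay before Tubb5. The copies of Tuba1a (at -176 from the RefSeq start site) and Tubb3 (at -77) lie inside the annotated gene. That of Tubb3 was therefore trimmed from the stretch shown. Neither CCAAT nor TTTGAA was found before Tuba1b, Tubb2a or Tubb4a. The E-box CAGCTG was found before the RefSeq start site of Tuba1b, also inside the annotated gene, and in 13.0% of promoters. CAGATG was found before none of the 8 promoters on hand but in 14.4% of all. A match describes these letters only, and Tubb2b and Tubb6 had no entry.

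Libraries held 14710694 to 66499864 UMIs over all barcodes and 2399 to 6951 cells after filtering. Chd8 itself was lower in the het library in 15 of 16 pairs, in all cells and in each class. The exception was the F1 pair at E17.5, with 61.6 CPM in WT and 70.8 CPM in het over all cells. At E12.5 the median barcode held 8762 to 10677 UMIs in WT and 4166 to 10727 in het libraries, with het M2 as deep as WT. On the first principal component within each stage, het M1, F1 and F2 lay apart from all WT libraries and het M2 at E12.5, both F1 libraries lay at one end at E14.5 and E16.0, and WT M1, het M1 and het F1 lay apart at E17.5. The α genes share sequence at their 3′ ends: 35.0%, 45.9% and 52.5% of read-length windows near the ends of Tuba1a, Tuba1b and Tuba1c also occur in transcripts of other genes (each other's and those of Gm17383), as do 19.1% for Tubb2a (with Tubb2b) and 9.24% for Tubb4b. Counts of these 5 genes are therefore uncertain to the extent that shared reads were dropped or split. Tuba1a, Tuba1b and Tubb3 also overlap another gene model on their own strand.

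All 10 members differed between Neurod6-detected and Sox2-detected cells of the 16 WT libraries, in a comparison where 86.2% of 14244 genes did. In neurons 6 members were higher (Tubb3, Tubb4a, Tuba1a, Tubb2b, Tubb2a and Tubb5) and 4 were lower (Tuba1c, Tuba1b, Tubb4b and Tubb6), where 42.1% of all genes were higher and 44.0% were lower. The members' median log2 difference was 0.44 and the median of all genes was -0.01. The count stands close to the background, so the isotypes are described by size and direction. Differences below are log2 values of Neurod6-detected minus Sox2-detected cells, averaged over stages, from edgeR's quasi-likelihood test with the library as a block and Benjamini-Hochberg adjustment over all genes.

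**Figure D1:**
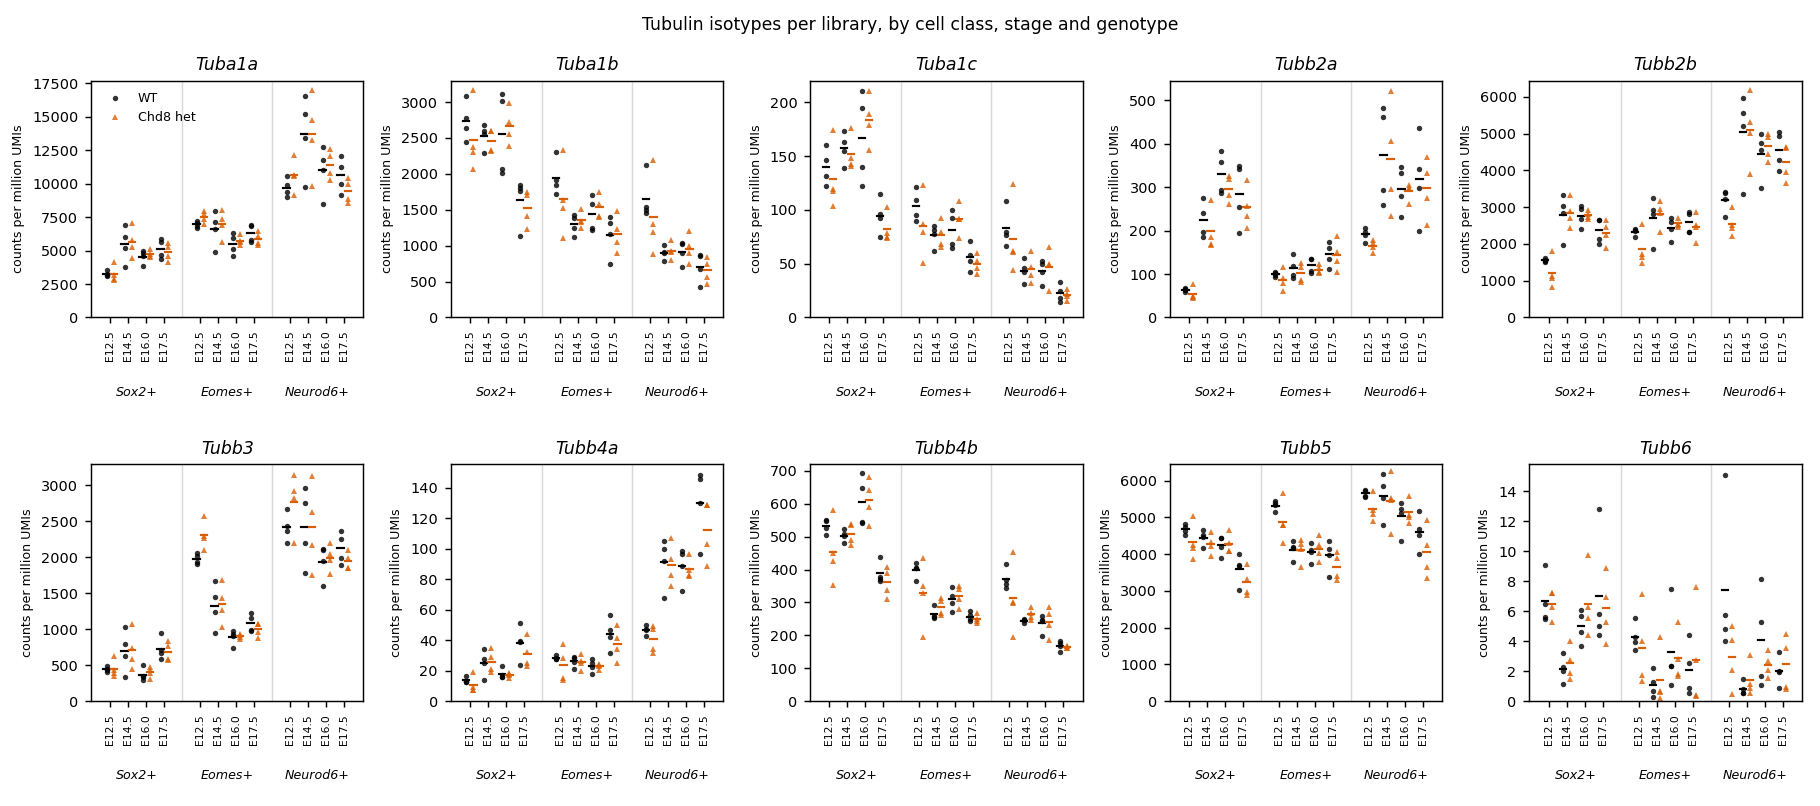
Levels of the 10 tubulin isotypes in CPM (vertical axes, each from 0) for every library, by cell class and stage (horizontal axis). Black points are WT and orange triangles Chd8 het libraries, and short bars are means of 4 libraries. Tuba1a, Tubb3 and Tubb4a lay higher in Neurod6-detected cells, Tuba1b, Tuba1c and Tubb4b lay higher in Sox2-detected cells.

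Tuba1a, the main α-tubulin of young neurons, was the most abundant of all isotypes by UMIs in Neurod6-detected cells. Its level in the 16 WT libraries ran from 3108 through a median of 4616 to 6914 CPM in Sox2-detected cells, and from 8447 through 10764 to 16533 CPM in Neurod6-detected cells. Every neuronal value lay above every progenitor value. The difference was 1.31 ± 0.02 (SE; adjusted p = 1.6e-31), a 2.48-fold rise. It was present at each stage, from 1.48 at E12.5 to 1.11 at E17.5.

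Tuba1b, a widely expressed α-tubulin of proliferating cells, went the other way. WT levels were 1141, 2501 and 3117 CPM (lowest, median, highest) in Sox2-detected cells and 419, 906 and 2123 CPM in Neurod6-detected cells. The ranges overlapped across stages, but within a library the neuronal value was lower in 16 of 16. The difference was -1.23 ± 0.02 (SE; adjusted p = 9.2e-30). Tuba1c, the third α gene and the rarest, ran from 74.4 through 140 to 210 CPM in Sox2-detected cells and from 14.7 through 44.1 to 108 CPM in Neurod6-detected cells, again lower in 16 of 16 libraries. Its difference was -1.67 ± 0.04, the most negative of the 10 members, and it reached -4.11 between Neurod6-only and Sox2-only cells.

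The make-up of the α pool differed between the classes. UMIs count transcript ends, so shares of isotypes need no correction for length, apart from the shared reads noted above. At E12.5 Tuba1a made up 53.3% ± 1.3 (SD, n = 4) of α UMIs in WT Sox2-detected cells, 77.3% ± 2.0 in Eomes-detected cells and 84.8% ± 3.1 in Neurod6-detected cells, with no overlap between the classes. Cells sorted by which class genes they held were set in a chosen order from Sox2 to Neurod6. Over both genotypes, 7247 cells with Sox2 and Neurod6 UMIs and 8537 with UMIs of all 3 genes were left out of this order. A single UMI sets the group here, and the share of such UMIs that came from free RNA was not measured. At E12.5 the Tuba1a share was 48.5% ± 1.1 with Sox2 only, 54.9% ± 2.2 with Sox2 and Eomes, 76.5% ± 2.1 with Eomes only, 91.2% ± 1.6 with Eomes and Neurod6, and 95.8% ± 0.84 with Neurod6 only (SD, n = 4 each). At each stage the Neurod6-only share of Tuba1a lay between 95.8% and 97.3%. Among Sox2-only cells the Tuba1a share was larger at E17.5 (72.6% ± 4.1), and at that stage the Sox2-and-Eomes cells were below them (65.5% ± 2.6). The Tuba1b share fell correspondingly, from 49.1% ± 1.1 in Sox2-only cells at E12.5 to 4.11% ± 0.78 in Neurod6-only cells.

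**Figure D2:**
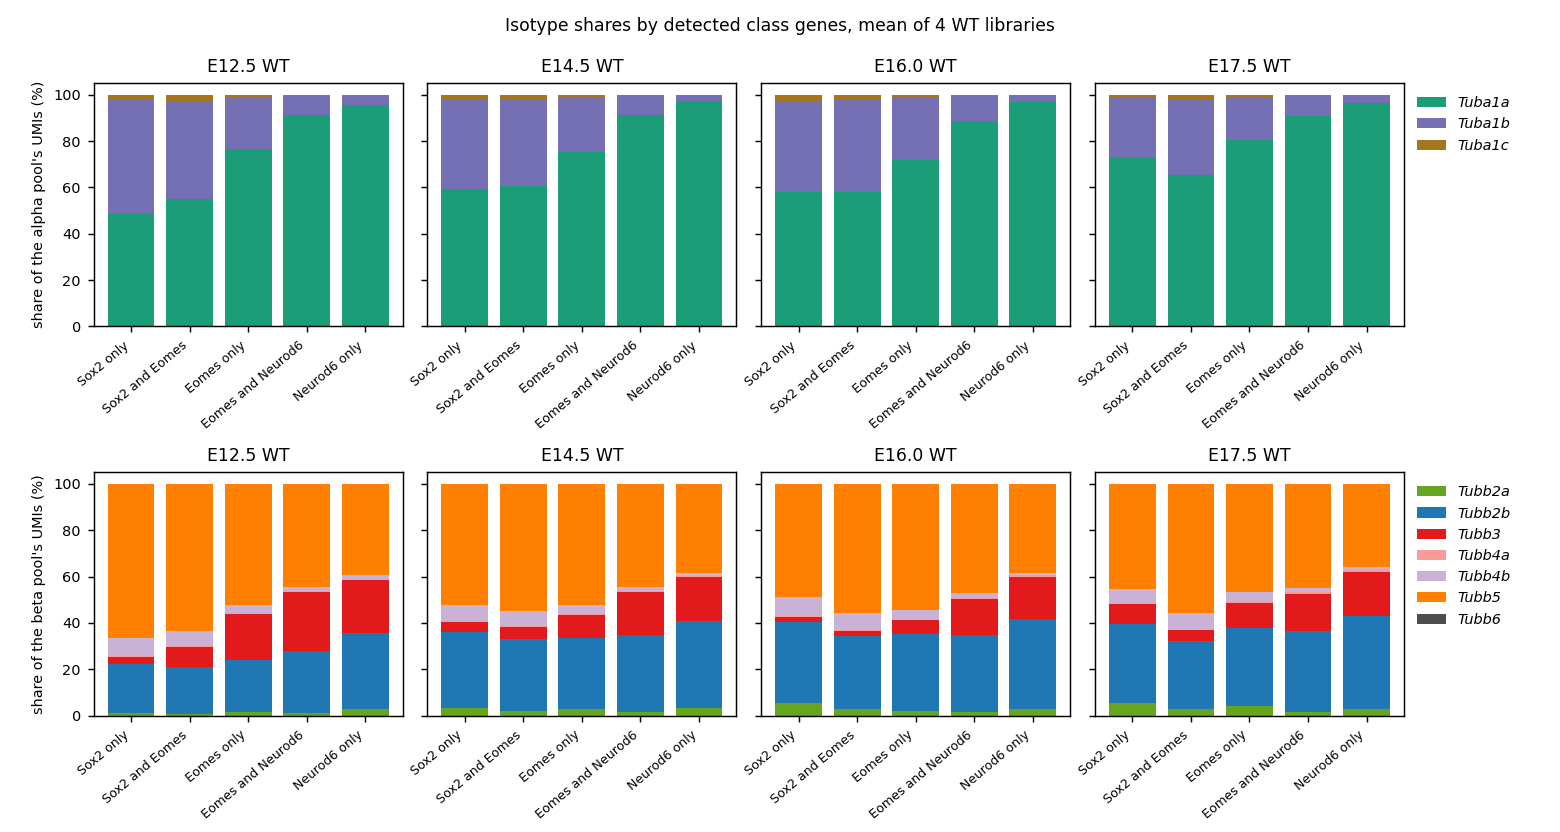
Share of each isotype (vertical axis, percent of UMIs) within the 3 α genes (top) and the 7 β genes (bottom), for WT cells grouped by which of Sox2, Eomes and Neurod6 had a UMI (horizontal axis), at the 4 stages. Bars are means of 4 libraries and sum to 100. Cells with both Sox2 and Neurod6 UMIs are not shown. Tuba1a reached 95.8% to 97.3% of α UMIs in Neurod6-only cells, and Tubb5 fell from 66.3% to 39.5% of β UMIs from Sox2-only to Neurod6-only cells at E12.5.

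Among the β genes tied to neurons, Tubb3 showed the largest positive difference of the 10 members. WT levels were 297, 495 and 1028 CPM (lowest, median, highest) in Sox2-detected cells and 1594, 2202 and 2960 CPM in Neurod6-detected cells, with no overlap. The difference was 2.07 ± 0.05 (SE; adjusted p = 2.8e-28), or 4.21-fold, and it was 3.31 in cells with a single class gene. By stage the difference was 2.36 at E12.5, 1.91 at E14.5, 2.41 at E16.0 and 1.62 at E17.5.

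Tubb4a, which is also a major β-tubulin of oligodendrocytes, was rare throughout but rose almost as much. It ran from 12.3 through 20.02 to 51.4 CPM in WT Sox2-detected cells and from 42.9 through 94.1 to 148 CPM in Neurod6-detected cells, higher in 16 of 16 libraries. The difference was 1.93 ± 0.04 (SE; adjusted p = 7.4e-29). Tubb2b, an abundant β-tubulin of migrating neurons, ran from 1505 through 2534 to 3332 CPM in Sox2-detected cells and from 2738 through 4418 to 5980 CPM in Neurod6-detected cells. It too was higher in 16 of 16 libraries, by 0.88 ± 0.02 (adjusted p = 2.0e-29).

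Tubb2a, the neighbour and near-copy of Tubb2b, behaved differently from it. At E12.5 the WT levels (M1, M2, F1, F2) were 65.0, 68.3, 64.2 and 59.1 CPM in Sox2-detected cells and 206, 172, 190 and 198 CPM in Neurod6-detected cells. At E16.0 they were 358, 383, 294 and 288 CPM in Sox2-detected cells and 332, 346, 280 and 230 CPM in Neurod6-detected cells. The classes were far apart at E12.5, and at E16.0 they overlapped, with the neuronal value lower in each library. The difference was 1.49 ± 0.08 at E12.5, 0.76 ± 0.08 at E14.5, -0.16 ± 0.08 at E16.0 (adjusted p = 0.063) and 0.21 ± 0.08 at E17.5 (adjusted p = 0.020). Without the 3 E17.5 libraries that lay apart, the E17.5 difference was 0.10 and not called (adjusted p = 0.30; 0.33 with all libraries and no library block), and that at E16.0 was called (-0.15, adjusted p = 0.047), as it was with at least 2 UMIs of the class gene (-0.25, adjusted p = 0.013). Between cells with a single class gene it was 2.76 at E12.5 and -0.10 at E17.5. Averaged over stages it was 0.58 ± 0.04, with neurons higher in 11 of 16 libraries, and in 8 of 16 in cells with a single class gene.

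The remaining β genes split. Tubb4b, a β-tubulin found in many tissues and in cilia, ran from 366 through 516 to 692 CPM in WT Sox2-detected cells and from 149 through 246 to 416 CPM in Neurod6-detected cells. The neuronal value was lower in 16 of 16 libraries, by -1.02 ± 0.02 (SE; adjusted p = 9.6e-29), or 2.03-fold. Tubb5, the most abundant β gene in each class by median, ran from 3036 through 4436 to 4824 CPM in Sox2-detected cells and from 3989 through 5313 to 6182 CPM in Neurod6-detected cells. Tubb5 was higher in neurons in 16 of 16 libraries but by only 0.30 ± 0.01 (adjusted p = 1.2e-19). Tubb6, on the plus strand of chromosome 18 (67390717 to 67402749), stayed near the limit of detection, with medians of 5.24 CPM in Sox2-detected and 2.00 CPM in Neurod6-detected cells. Its averaged difference was -0.88 ± 0.22 (adjusted p = 0.00044), lower in 13 of 16 libraries, and at E12.5 and E16.0 it did not pass the test. At E14.5 it was -1.33 (adjusted p = 0.036), but 0.040 with doublets kept (adjusted p = 0.94), and the call was lost without the E14.5 F1 pair (adjusted p = 0.066) and without the library block (adjusted p = 0.054).

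Within the β pool, the share of Tubb5 was smaller in neurons and those of Tubb3 and Tubb2b were larger. At E12.5 Tubb5 was 66.3% ± 0.73 (SD, n = 4) of β UMIs in Sox2-only cells and 39.5% ± 0.66 in Neurod6-only cells. Tubb3 was 3.22% ± 0.17 and 23.0% ± 0.78 in the same cells, and among the groups shown it was highest in the Eomes-and-Neurod6 cells at 25.5% ± 1.6. Tubb2b was 21.4% ± 0.78 and 32.8% ± 1.2. At E17.5 the contrast was smaller: Tubb5 was 45.2% ± 3.2 and 35.9% ± 2.2, Tubb3 8.74% ± 2.8 and 19.1% ± 0.51, and Tubb2b 33.8% ± 3.0 and 39.99% ± 1.1. Tubb4b fell from 7.92% ± 0.20 to 1.41% ± 0.16 of β UMIs between the 2 groups at E12.5.

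Per stage, 9, 10, 8 and 10 members passed the test between neurons and progenitors from E12.5 to E17.5, where 74.6%, 75.1%, 79.8% and 70.2% of all genes did. The difference itself changed between E12.5 and E17.5 for 8 members, against 52.5% of all genes. It grew more negative for Tuba1c (-1.16 ± 0.12), Tubb4b (-0.53 ± 0.06) and Tuba1b (-0.35 ± 0.07), and it shrank for Tubb2a (-1.28 ± 0.11), Tubb3 (-0.74 ± 0.13) and Tuba1a (-0.37 ± 0.06). Tubb5 changed by 0.23 ± 0.04 and Tubb6 by -1.79 ± 0.55, while Tubb2b and Tubb4a did not pass (0.07 ± 0.05 and 0.11 ± 0.13). In cells with a single class gene (background 45.2%) the Tuba1b change was 0.19 and that of Tubb5 0.13, neither of which passed, and those of Tubb2b (-0.66 ± 0.09) and Tubb4a (-0.83 ± 0.20) did.

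**Figure D3:**
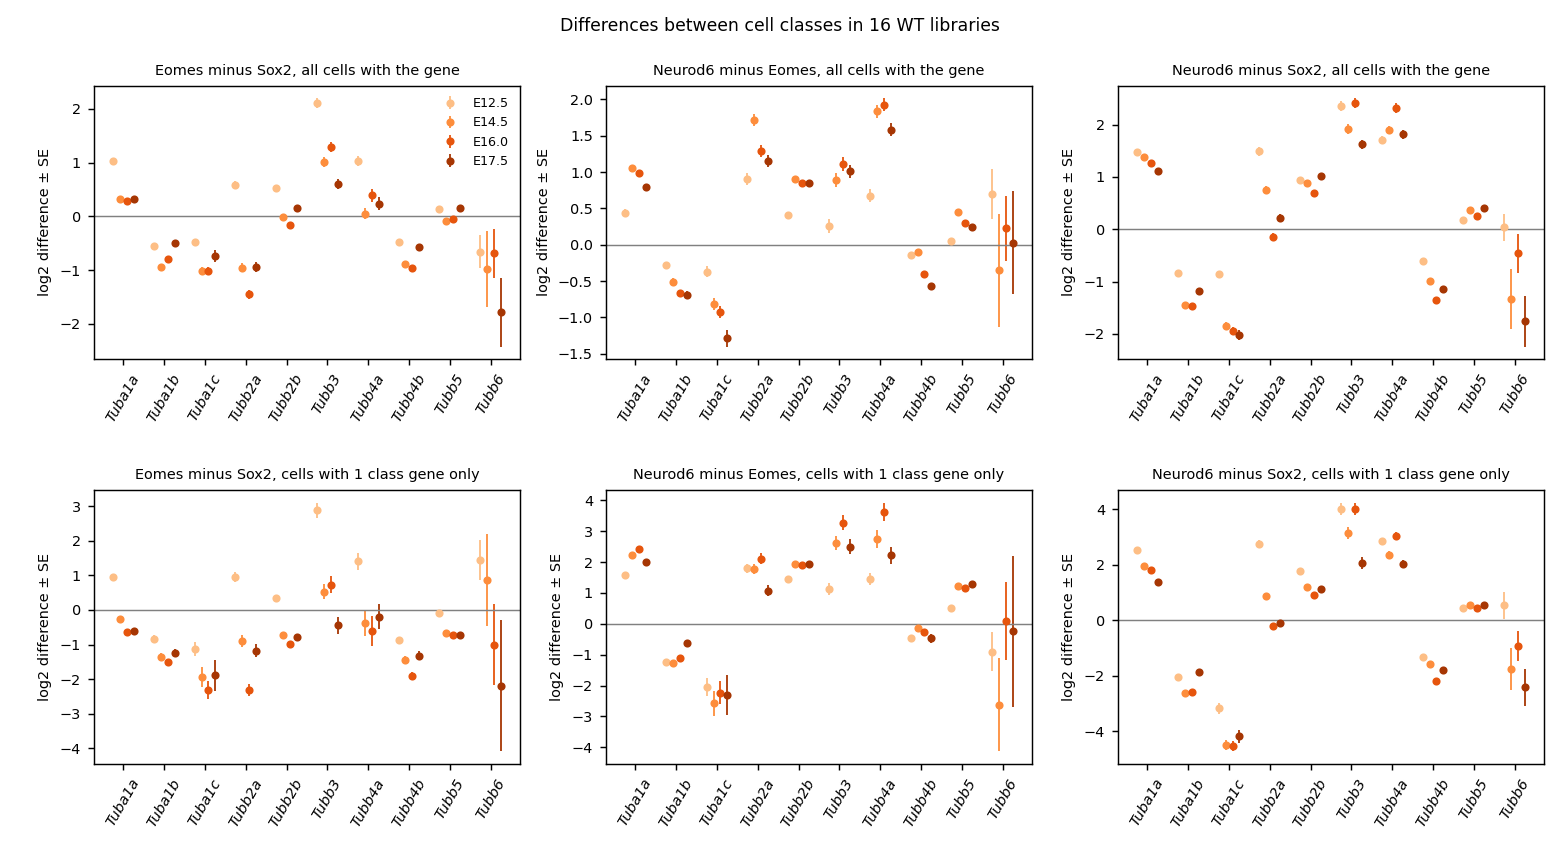
Log2 differences between cell classes (vertical axis, ± SE) for each isotype (horizontal axis) at the 4 stages in the 16 WT libraries. The upper row uses all cells with the class gene and the lower row cells with 1 class gene only. Neurod6 minus Sox2 was positive for Tuba1a, Tubb3, Tubb4a, Tubb2b and Tubb5 and negative for Tuba1b, Tuba1c and Tubb4b at each stage in both rows.

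Eomes-detected cells, the intermediate step, had more Tubb3 and less Tuba1b, Tuba1c and Tubb4b than Sox2-detected cells. Against Sox2-detected cells all 10 members passed the test, where 70.7% of all genes did. Tubb3 was 742, 1189 and 2061 CPM (lowest, median, highest) in WT Eomes-detected cells and was higher than in Sox2-detected cells by 1.26 ± 0.05 (SE; adjusted p = 1.2e-21). Tuba1b (-0.70), Tuba1c (-0.82), Tubb4b (-0.72) and Tubb6 (-1.03) were lower. Tubb2a was lower as well (-0.69 ± 0.04), so that it had its lowest level in the intermediate class: medians were 247 CPM in Sox2-detected, 109 CPM in Eomes-detected and 287 CPM in Neurod6-detected cells. At E12.5, however, Tubb2a was higher in Eomes-detected cells by 0.58 ± 0.08.

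Most Eomes-detected cells also held Neurod6 UMIs, and for several isotypes the direction was another in cells without them. Eomes-only sums were small, at 14 to 151 cells per library over both genotypes, and at 14 to 50 at E17.5. Between Eomes-only and Sox2-only cells, where 38.0% of all genes passed, Tuba1a was lower by -0.14 ± 0.04 rather than higher by 0.49 ± 0.02. Tubb2b turned from 0.13 to -0.54, and Tubb5 from 0.04 to -0.55. Tubb4a (0.06) and Tubb6 (-0.22) were not called. Tubb3 averaged 0.93 ± 0.11 over stages that differed widely: 2.88 ± 0.21 at E12.5, 0.53 ± 0.22 at E14.5 (adjusted p = 0.10), 0.73 ± 0.23 at E16.0 and -0.44 ± 0.24 at E17.5 (adjusted p = 0.28). From Eomes-detected to Neurod6-detected cells 9 members passed, where 74.1% of all genes did. Tubb4a rose most (1.51 ± 0.04), followed by Tubb2a (1.27 ± 0.04), Tuba1a and Tubb3 (0.82 each) and Tubb2b (0.75 ± 0.02). Tuba1b, Tuba1c and Tubb4b fell by 0.54, 0.85 and 0.30 on the log2 scale, and Tubb6 did not pass (0.15, adjusted p = 0.66).

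Isotype levels differed between stages within each class. Depth differed as well: the median barcode of WT libraries held 8762 to 10677 UMIs at E12.5 and 4119 to 5484 at E17.5. Membership of a class rests on detection of 1 UMI, and the part of depth in the stage differences was not tested. In WT Sox2-detected cells 8 members differed between E12.5 and E17.5, where 59.5% of all genes did: 4 rose and 4 fell, against 30.5% and 29.0% of all genes. Tubb2a rose most, from 65.0, 68.3, 64.2 and 59.1 CPM (M1, M2, F1, F2) at E12.5 to 254, 343, 349 and 195 CPM at E17.5. The stages did not overlap, and the rise was 1.96 ± 0.17 (SE; adjusted p = 6.3e-11), or 3.88-fold. Most of it had taken place by E14.5, where the 4 values were 275, 241, 186 and 196 CPM and the difference from E12.5 was 1.68 ± 0.17. Tubb4a rose from 13.0, 16.6, 12.5 and 12.3 CPM to 24.02, 51.4, 39.6 and 38.5 CPM, by 1.31 ± 0.27 (adjusted p = 0.00011).

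Smaller rises in Sox2-detected cells were those of Tuba1a (0.45 ± 0.14, adjusted p = 0.0067) and Tubb2b (0.41 ± 0.15, adjusted p = 0.017), and the latter was 0.22 and not called with at least 2 Sox2 UMIs per cell (adjusted p = 0.15). Tuba1b fell by 0.94 on the log2 scale, from 2642, 3090, 2445 and 2778 CPM to 1141, 1800, 1757 and 1844 CPM, with no overlap. Tuba1c fell by 0.76, Tubb4b by 0.65 and Tubb5 by 0.57. The Tubb3 difference of 0.52 ± 0.24 missed the threshold (adjusted p = 0.062), was called by DESeq2 (0.54, adjusted p = 0.043) and was 0.29 with at least 2 Sox2 UMIs (adjusted p = 0.42), and in Sox2-only cells (background 56.3%) it was 1.44 ± 0.44 (adjusted p = 0.0064). Other cell types in the class moved with stage. Summed interneuron markers were at 2.87 to 34.9 CPM in the WT libraries at E12.5 and at 200 to 807 CPM at E17.5, and oligodendrocyte precursor markers at 1.31 to 1.69 and 206 to 482 CPM. By E14.5 these sums were 47.0 to 237 CPM and 2.25 to 7.06 CPM, and intermediate progenitor markers had gone from 823 to 1148 CPM at E12.5 to 1215 to 2547 CPM. The share of Sox2-detected cells with a Neurod6 UMI went from 15.8% to 43.4% between the same stages. The part of these cells in the changes of the isotypes was not tested.

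The steps between neighbouring stages were uneven. From E12.5 to E14.5, 5 members passed in Sox2-detected cells (background 38.4%), 6 in Eomes-detected cells (29.5%) and 8 in Neurod6-detected cells (38.5%). From E14.5 to E16.0 the counts were 2, 2 and 1 (background 8.92%, 6.23% and 11.9%), and from E16.0 to E17.5 they were 5, 1 and 1 (22.7%, 7.63% and 5.82%). Tubb3 in Sox2-detected cells fell by 1.01 on the log2 scale from E14.5 to E16.0 and rose by 1.02 ± 0.24 to E17.5 (adjusted p = 0.0074 and 0.0031). In Sox2-only cells the first of these was -1.22 and not called (adjusted p = 0.086). Its E14.5 libraries spread widely, at 1028, 794, 339 and 631 CPM, with F1 the lowest. Without the E14.5 F1 pair, 4 members in Sox2-detected and 6 in Neurod6-detected cells passed from E14.5 to E16.0, where 2023 of 14112 and 3064 of 14834 genes did, against 1230 of 13793 and 1741 of 14578 with all libraries.

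In Neurod6-detected cells 8 members changed from E12.5 to E17.5 (background 59.6%). Tubb4a rose by 1.40 ± 0.17 (SE; adjusted p = 6.0e-08), from 47.6, 42.9, 46.5 and 50.2 CPM to 96.5, 145, 148 and 130 CPM, with no overlap. Tubb2a rose by 0.66 ± 0.21 and Tubb2b by 0.44 ± 0.15. Among Neurod6-only cells these last 2 values were -0.22 and -0.04, and with at least 2 Neurod6 UMIs they were 0.28 and 0.16 and not called. Tuba1c fell by 1.96, from 77.1, 108, 66.8 and 79.2 CPM to 14.7, 25.0, 17.8 and 33.3 CPM. Tuba1b fell by 1.30, Tubb4b by 1.22 and Tubb5 by 0.38. Tubb6 fell by 1.97, and WT M2 at E12.5 held its highest level; the call was lost with at least 2 Neurod6 UMIs (-2.31, adjusted p = 0.056). Tuba1a (0.05) and Tubb3 (-0.26, adjusted p = 0.16) did not pass, though in Neurod6-only cells (background 51.9%) both fell (by 0.48 and 0.59).

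Other cells in the Neurod6-detected class moved with stage as well. The share of these cells with a Sox2 UMI was 38.7% at E12.5 and 10.6% at E17.5. Summed intermediate progenitor markers were at 1533 to 2026 CPM in the WT libraries at E12.5 and at 731 to 1060 CPM at E17.5, and radial glial markers at 1574 to 1953 and 954 to 1431 CPM. Oligodendrocyte precursor markers were at 0.682 to 1.62 and 21.2 to 66.4 CPM, and interneuron markers at 1.85 to 11.6 and 16.8 to 81.9 CPM. Over all stages and both genotypes, meningeal fibroblast markers ran from 0.605 to 72.8 CPM and endothelial markers from 6.90 to 162 CPM. The part of these cells in the changes of the isotypes was not tested.

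In Eomes-detected cells 8 members changed over the same interval (background 50.2%), and Tubb3 fell. Its WT levels were 1899, 2011, 1931 and 2061 CPM at E12.5 and 977, 1226, 1152 and 992 CPM at E17.5, with no overlap. The fall was 0.99 on the log2 scale (adjusted p = 3.5e-07), and it was 1.83 among Eomes-only cells (background 18.8%). Tuba1b, Tuba1c, Tubb4b, Tubb5 and Tuba1a were lower too, by 0.27 (Tuba1a) to 1.02 (Tuba1c), and Tubb2a and Tubb4a were higher by 0.42 and 0.52. Among Eomes-only cells, Tuba1c (adjusted p = 0.065), Tubb4b (0.095), Tubb2a (0.55) and Tubb4a (0.83) were not called. The Tuba1a call was lost with RLE scaling, with no count filter, with doublets kept and without the 3 E17.5 libraries that lay apart (adjusted p = 0.060 to 0.25). With at least 2 Eomes UMIs per cell, Tubb2a and Tubb4a were not called either (adjusted p = 0.052 and 0.49). The make-up of this class moved with stage too. The share with a Sox2 UMI was 50.3% at E12.5 and 35.6% at E17.5. Summed intermediate progenitor markers were at 2886 to 3596 and then 2119 to 2576 CPM in WT. Radial glial markers were at 1898 to 2076 and 2296 to 2566 CPM. Oligodendrocyte precursor markers were at 0.929 to 4.11 and 15.2 to 61.8 CPM. Interneuron markers were at 1.25 to 11.4 and 18.7 to 60.8 CPM. The part of these cells was not tested.

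Sox2-detected cells were next divided by Top2a, a topoisomerase gene of cells that replicate and divide. Of these cells, 28610 held a Top2a UMI and 25344 did not. All 10 members differed between them in the 16 WT libraries, where 67.8% of all genes did. Cells with Top2a were deeper, with medians of 5813 to 12887 UMIs per cell over libraries against 3948 to 8902, and the part of depth was not tested. In the Top2a-detected cells 5 members were higher (Tuba1c, Tubb6, Tuba1b, Tubb4b, Tubb5) and 5 were lower (Tubb3, Tubb4a, Tuba1a, Tubb2b, Tubb2a), against 33.6% and 34.2% of all genes.

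Tuba1c had the largest difference, at 2.28 ± 0.06 (SE; adjusted p = 9.1e-23), or 4.86-fold. At E14.5 its WT levels were 262, 287, 223 and 278 CPM with Top2a and 30.2, 42.3, 46.5 and 49.9 CPM without. Tuba1b was higher by 1.59 ± 0.03 (adjusted p = 2.1e-24), and at E17.5 it stood at 1901, 3102, 3006 and 2752 CPM with Top2a and at 404, 806, 720 and 880 CPM without. In both cases the lowest library with Top2a lay above the highest library without. Tubb4b was higher by 1.53 ± 0.05 (adjusted p = 5.3e-20). At E14.5 it stood at 806, 814, 669 and 765 CPM with Top2a and at 191, 208, 229 and 242 CPM without, so these levels did not overlap.

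Tubb5 was higher by 0.65 ± 0.02 and Tubb6 by 1.66 ± 0.15, and all 5 higher members were higher in 16 of 16 libraries. Tubb3 was lower by -1.55 ± 0.05 (adjusted p = 4.1e-21). Its E14.5 levels were 396, 306, 183 and 267 CPM with Top2a and 1585, 1267, 590 and 1058 CPM without, again apart. Tubb4a (-1.28 ± 0.07) and Tuba1a (-0.50 ± 0.03) were lower in 16 of 16 libraries. Tubb2b and Tubb2a differed by only -0.26 ± 0.02 and -0.22 ± 0.04. Cells that also held Eomes or Neurod6 UMIs were kept on both sides of this split.

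By stage, 10, 10, 8 and 9 members passed, where 44.9%, 53.7%, 48.9% and 43.8% of all genes did. Differences were smaller at E12.5 for most: Tuba1b was higher by 0.69 ± 0.06 at E12.5 and by 1.80 to 2.05 at later stages, and Tubb3 was lower by -0.81 ± 0.09 at E12.5 and by -1.58 to -1.92 later. The change of the difference with stage was not tested. In Top2a-detected cells Tuba1a made up 48.8% ± 1.2 of α UMIs at E12.5 and 57.6% ± 2.4 at E17.5, while in the other Sox2-detected cells it went from 67.7% ± 2.1 to 89.7% ± 2.8 (SD, n = 4).

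**Figure D4:**
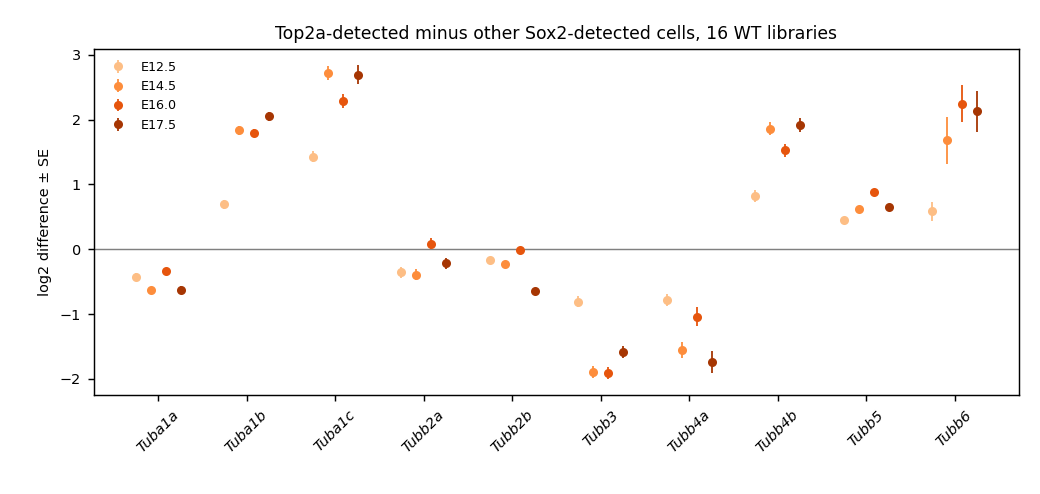
Log2 difference (vertical axis, ± SE) between Sox2-detected cells with and without a Top2a UMI for each isotype (horizontal axis) at the 4 stages, in 16 WT libraries. Tuba1b, Tuba1c, Tubb4b, Tubb5 and Tubb6 lay above 0 and Tuba1a, Tubb3 and Tubb4a below 0 at each stage.

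No isotype differed between Chd8 het and WT by the test without pairs. Over the 3 classes, each averaged over stages and at each stage, 0 of 10 members were called in all 15 comparisons with edgeR, and DESeq2 called 0 as well. Among all genes, 0.500%, 0.290% and 0.220% were called in Sox2-, Eomes- and Neurod6-detected cells averaged over stages, and 0.682%, 0.434% and 0.0137% at E12.5, and 0.0218% in Sox2-detected cells at E16.0, 0.00762% in Eomes-detected cells at E16.0 and at E17.5, and 0.00% in each of the others. At an unadjusted p under 0.05 there were 3 members in all: Tubb2a in Sox2-detected cells averaged over stages, Tubb2b in Sox2-detected cells at E12.5 and Tubb3 in Eomes-detected cells at E12.5. Of all genes, 1190 of 13793, 2462 of 13793 and 1879 of 13119 had such a p in these comparisons, so 1 member of 10 is near or under the share among all genes. Each of these 3 was called when the litter- and sex-matched pair was added as a block, against backgrounds of 1.59%, 15.5% and 6.62%.

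Tubb2a in Sox2-detected cells was 65.0, 68.3, 64.2 and 59.1 CPM in WT and 49.4, 76.7, 44.2 and 47.9 CPM in Chd8 het libraries of stage E12.5. In E14.5 embryos it was 275, 241, 186 and 196 CPM in WT and 271, 186, 167 and 169 CPM in het, and at E16.0 358, 383, 294 and 288 CPM against 325, 319, 262 and 283 CPM. At E17.5 it was 254, 343, 349 and 195 CPM in WT and 234, 316, 257 and 207 CPM in het. The groups overlapped at each stage, while the het library was lower in 14 of 16 pairs, the exceptions being M2 at E12.5 and F2 at E17.5. The averaged difference was -0.17 ± 0.08 (SE; adjusted p = 0.57), and -0.18 ± 0.04 once pairs were blocked (adjusted p = 0.045). In Eomes-detected cells the het library was lower in 13 of 16 pairs and in Neurod6-detected cells in 10 of 16.

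Tubb2b in Sox2-detected cells at E12.5 was 1623, 1533, 1572 and 1505 CPM in WT and 1140, 1808, 835 and 1071 CPM in het. In 3 pairs het was lower than every WT library, and het M2, the library of WT-like depth, was higher. The difference was -0.30 ± 0.15 (adjusted p = 0.28), -0.34 ± 0.10 with the pair block (adjusted p = 0.026), and -0.49 without het M2 (adjusted p = 0.015). The 3 lower libraries are those that lay apart on the first principal component. Tubb3 in Eomes-detected cells at E12.5 was 1899, 2011, 1931 and 2061 CPM in WT and 2291, 2102, 2566 and 2272 CPM in het. The het values were higher in 4 of 4 pairs and did not overlap the WT values. In the same cells, summed intermediate progenitor markers were at 2886 to 3596 CPM in WT and 2623 to 5135 CPM in het, and radial glial markers at 1898 to 2076 and 1113 to 2212 CPM. Excitatory neuron markers were at 895 to 1028 CPM in WT and 805 to 976 CPM in het. The Tubb3 difference was 0.32 ± 0.13 (adjusted p = 0.24), and 0.32 ± 0.08 with the pair block (adjusted p = 0.025). Het libraries other than M2 were shallower than WT at this stage, and the part of depth and of these markers in the E12.5 differences was not tested.

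No other member was called by genotype, with or without the pair block. In Sox2-detected cells averaged over stages, differences ran from -0.17 (Tubb2a) to 0.13 (Tubb6). The largest difference at any stage was that of Tubb6 in Neurod6-detected cells at E12.5, with 5.74, 15.1, 4.84 and 4.05 CPM in WT and 4.06, 5.04, 0.484 and 2.11 CPM in het. The het library was lower in 4 of 4 pairs, and the groups overlapped. In the same sums endothelial markers were at 28.2 to 78.6 CPM in WT and 7.98 to 37.1 CPM in het, and meningeal fibroblast markers at 17.3 to 72.8 and 4.07 to 25.5 CPM; their part in the difference was not tested. The difference was -1.14 ± 0.61 (adjusted p = 0.44), and -1.25 ± 0.45 with the pair block (adjusted p = 0.096).

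At E17.5 Tubb5 and Tuba1a were lower in het in 4 of 4 pairs in each of the 3 classes, which share cells. Chd8 itself was not lower in het in the F1 pair of this stage. Tubb5 in Neurod6-detected cells was 3989, 5177, 4513 and 4674 CPM in WT and 3346, 4932, 3646 and 4259 CPM in het, so the groups overlapped. The 3 lowest of these are WT M1, het M1 and het F1, the libraries that lay apart at this stage, and without them the difference was -0.11 in Neurod6-detected cells. With the pair block and all libraries the difference was -0.18 ± 0.06 in Sox2-detected, -0.16 ± 0.06 in Eomes-detected and -0.27 ± 0.08 in Neurod6-detected cells (edgeR, adjusted p = 0.35, 0.36 and 0.20). For Tuba1a the blocked differences were -0.10, -0.14 and -0.24 (adjusted p = 0.60, 0.47 and 0.30). Over the 4 stages Tubb5 was lower in het in 13 of 16 pairs in Sox2-detected cells, and Tuba1a averaged 0.02 ± 0.07 there.

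**Figure D5:**
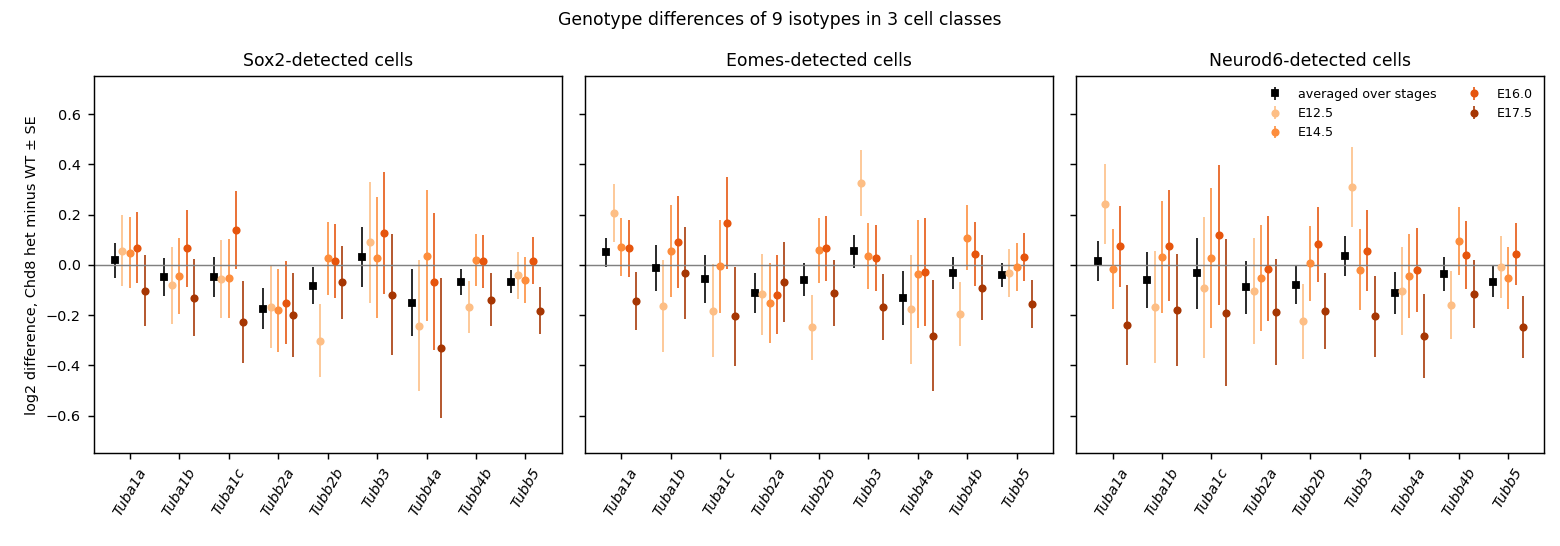
Log2 difference of Chd8 het minus WT (vertical axis, ± SE) for 9 isotypes (horizontal axis; Tubb6 left out for its low counts) in the 3 cell classes, averaged over stages (black squares) and at each stage (orange points). Tubb2a lies below 0 at each stage in Sox2-detected cells, and Tuba1a and Tubb3 averaged over stages lie near 0 there.

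Other genes of the tubulin system were counted for comparison. Counts are for WT Neurod6-detected minus Sox2-detected cells averaged over stages, where 42.1% of all genes were higher and 44.0% lower (median -0.01). Of 30 microtubule-associated protein genes 24 were higher and 3 lower (median log2 difference 0.78), led by Mapt (2.696), which encodes tau, and Dcx (2.08), which encodes doublecortin. Of 24 mitotic spindle genes 1 was higher and 23 lower (median -1.52), with Aurkb, the kinase of the chromosomal passenger complex, at -1.66 and Prc1, a midzone protein, at -1.63. Of 20 tubulin-modifying enzyme genes 12 were higher and 4 lower (median 0.26), among them the α-tubulin acetylase Atat1 (1.18) and the detyrosinating Vash2 (1.16). Of 21 folding and assembly genes 10 were higher and 10 lower (median 0.00), near the shares among all genes, with small differences, such as the cofactor Tbcd (0.47) and the chaperonin subunit Cct5 (-0.27).

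Of 10 further tubulin genes 5 had enough counts to be tested. Tuba4a was higher in neurons (2.06) and Tubg1, the γ-tubulin of centrosomes, was lower (-0.20). In the Top2a comparison 24 of 24 spindle genes were higher in Top2a-detected cells (Top2a, which made the split, is itself on this list), and 19 of 30 microtubule-associated genes were lower, where 33.6% of all genes were higher and 34.2% lower. Tubg1 was higher there by 0.74. From E12.5 to E17.5 in Sox2-detected cells, 15 of 21 folding genes fell, where 29.0% of all genes did, with the chaperonin subunits Cct3 at -1.06 and Cct8 at -1.03.

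Levels followed other genes closely across the 48 WT sums of 16 libraries and 3 classes. In sets of 3 these sums share a library, its depth and part of its cells. By Pearson r of log2(CPM + 1) over 8467 genes, those most like Tuba1a were Svop (0.97), Bdh1 (0.96) and Tango2 (0.96), and those most like Tubb3 were Fam241b (0.97), Celf3 and Olfm1. Nearest to Tubb4a were Syn1 (0.98), Map1lc3a and B4galnt1, and nearest to Tubb2b were Snap47 (0.96), Tmem35a and Trappc3. Tuba1b was most like Ran (0.98), Tuba1c (0.97) and Rfc5 (0.97), and Tubb4b most like Prdx4 (0.97), Pgp and Hadh. Tubb2a had the loosest neighbours, Gnao1 (0.87), Prdx5 and Cyb5a, and Tubb5 was nearest to Mapk11 (0.90). Among members, r was 0.97 for Tuba1b with Tuba1c, which share 3′ sequence. It was 0.94 for Tuba1b with Tubb4b, 0.91 for Tuba1a with Tubb3 and -0.70 for Tuba1a with Tuba1b.

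Cells of another type gave a last set of levels: 439 cells with at least 2 endothelial markers and no Sox2, Eomes or Neurod6 UMI. They were pooled over WT and Chd8 het libraries and are set beside WT values of the neural classes. Free RNA and RNA of the cells' own cannot be told apart in them. Tubb6 was at 210 CPM (95% Poisson interval 198 to 221, counting error only), far above its level in the 3 neural classes. Tuba1a stood at 1872 CPM, Tubb5 at 1905 CPM, Tuba1b at 831 CPM and Tubb2b at 256 CPM. Each was below its WT median in all 3 neural classes, though Tuba1b was within the ranges of Eomes-detected and Neurod6-detected libraries. Tubb3 was at 64.5 CPM (58.3 to 71.1), below the lowest WT library in any class.

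Tubb2a, Tuba1c and Tubb4b reached the levels of some neural libraries in these cells, and Tubb4a did at some stages. Tubb2a was at 159 CPM, above its median of 109 CPM in Eomes-detected cells, and at E12.5 it was at 161 CPM, where WT Sox2-detected cells held 59.1 to 68.3 CPM. Tuba1c was at 42.5 CPM, and at E17.5 at 27.3 CPM, within the 14.7 to 33.3 CPM of WT Neurod6-detected cells. Tubb4b was at 216 CPM, within its range in Neurod6-detected cells. Tubb4a was at 6.44 CPM (3.75 to 10.3) at E12.5, below the 12.3 to 16.6 CPM of WT Sox2-detected cells. At E14.5 it was at 40.2 CPM and at E16.0 at 22.2 CPM, where those cells held 14.1 to 34.4 and 15.9 to 23.0 CPM. At E17.5 it was at 20.8 CPM, below their 24.02 to 51.4 CPM.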

How the data were processed

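Members and lists of comparison genes were chosen with earlier results of these data known. The authors deposited UMI counts per gene and cell barcode for each library. Per the labels' protocols, libraries were made with 10x 3' chemistry version 2 and read 2 had 98 cycles. Per the submitters' processing notes, STAR 2.7.9a, STARsolo, Cell Ranger and build mm10 were used; the strand setting and the treatment of reads shared between genes were not stated in these sources.

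Of 145082 barcodes, 143697 passed filters of 1000 UMIs, 500 detected genes and a mitochondrial share of no more than 10%. A simulation-based doublet score (0.8% expected per 1000 cells) removed 5471 barcodes, which left 138226 cells. Libraries shared 7 to 66 barcodes pairwise. Counts were summed per library and class and tested with edgeR 4.0.16 (quasi-likelihood, TMM, filterByExpr, adjusted p under 0.05) in R 4.3.3. Genotype and stage were fitted over 32 libraries in 8 groups per class; class and Top2a comparisons used 16 WT libraries with the library as a block. The steps were checked on simulated counts with genotype averaged over stages. Of genes changed 1.5-fold, 81% were recovered among 13793 genes in Sox2-detected cells and 68% among 14578 genes in Neurod6-detected cells. Recovery of genotype differences was not checked at single stages, with the pair block or for changes under 1.5-fold. The blocked difference of Tubb2a in Sox2-detected cells averaged over stages was 1.13-fold. Per the labels' protocols, libraries came in litter- and sex-matched pairs, while the sample titles give sex and replicate number but no litter. Pairing by the same name rests on that number. Same-numbered libraries deviated together, with correlations over 0.1 in 15, 14 and 13 of 16 pairs in Sox2-, Eomes- and Neurod6-detected cells (0.063 to 0.587, -0.021 to 0.592 and -0.108 to 0.710).

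All 10 members are named; in each other list, up to 2 genes with the largest positive and 2 with the largest negative difference among those called with a mean of at least 10 CPM, and for likeness the 3 genes with the highest r. Alternatives were DESeq2 1.42.0, RLE scaling, no count filter, doublets kept, at least 2000 UMIs, cells with 1 class gene only, at least 2 UMIs of the class gene, a matched-pair block, no library block and leaving out each library. Leaving out the 3 E17.5 libraries or the E14.5 F1 pair was chosen after seeing the data.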

Additional observations from a re-analysis of the deposited data

Results flagged for a closer look

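Of 240 groups of 4 libraries (isotype by class, stage and genotype), 12 held a library far from the other 3; chance alone gives about 1 in 20. In Sox2-detected cells at E17.5, Tuba1b was 1141 CPM in WT M1 against 1757 to 1844 CPM in the others, Tuba1c was 102 CPM in Chd8 het F2 against 74.0 to 78.2 CPM, Tubb4b was 439 CPM in WT F1 against 366 to 377 CPM, and Tubb6 was 12.9 CPM in WT F1 against 4.39 to 5.79 CPM. At E12.5 the het M2 library was high for Tubb2a (76.7 CPM against 44.2 to 49.4 CPM) and for Tubb4a (19.2 CPM against 7.53 to 9.21 CPM), and WT M2 was high for Tubb4a (16.6 CPM against 12.3 to 13.0 CPM). At E16.0 WT F1 was high for Tubb4a, with 23.0 CPM against 15.9 to 16.998 CPM.

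In Eomes-detected cells at E14.5, Tubb4b was 292 CPM in WT F2 against 254 to 259 CPM, and Tubb6 was 4.26 CPM in het F1 against 0.204 to 0.700 CPM. In Neurod6-detected cells at E12.5, WT M2 was high for Tuba1b (2123 CPM against 1456 to 1541 CPM) and for Tubb6 (15.1 CPM against 4.05 to 5.74 CPM).

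The neuron-minus-progenitor difference changed between E12.5 and E17.5 for 8 isotypes by an interaction term in edgeR, where it changed for 52.5% of all genes. The changes were -1.79 for Tubb6, -1.28 for Tubb2a, -1.16 for Tuba1c, -0.74 for Tubb3, -0.53 for Tubb4b, -0.37 for Tuba1a, -0.35 for Tuba1b and 0.23 for Tubb5. With no library block the count was 4, and in cells with a single class gene Tuba1b and Tubb5 did not pass.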

How the results depend on the processing

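Classes share cells, isotypes share 3′ sequence, and Tubb6 and Tubb4a counts were low, which limits small differences. With the matched pair as a replicate block, 1 member each was called by genotype in Sox2-detected cells averaged over stages and at E12.5 and in Eomes-detected cells at E12.5, where 0 were called without it; the block changed no other genotype call of a member. RLE scaling moved the median of all genes by at most 0.064 (log2). The cause of the changes below was not tested.

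In cells with 1 class gene only, differences that had been called changed sign for the E12.5-to-E17.5 change in Neurod6-detected cells (Tubb2a -0.22, Tubb2b -0.039), for Neurod6 minus Sox2 at E17.5 (Tubb2a -0.10), for the class-by-stage change of Tuba1b (0.19) and for Eomes minus Sox2. The last were Tuba1a -0.14, Tubb2b -0.54 and Tubb5 -0.55 averaged over stages, Tubb5 -0.081 at E12.5, Tuba1a -0.26 at E14.5, Tuba1a -0.64 and Tubb4a -0.60 at E16.0, and Tuba1a -0.61, Tubb2b -0.80, Tubb3 -0.44 and Tubb5 -0.74 at E17.5. Uncalled differences changed sign too, among them the median genotype difference of the members in Eomes-detected cells averaged over stages (-0.038 to 0.049), at E14.5 (0.045 to -0.11) and at E17.5 (-0.13 to 0.14), and in Sox2-detected cells at E14.5 (0.022 to -0.032). With doublets kept, Tubb6 Neurod6 minus Sox2 at E14.5 was 0.040.

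Counts of members called by stage moved as follows, each with the number of all genes called under that setting in brackets. From E14.5 to E16.0 in Sox2-detected cells the count of 2 (1230) became 1 with doublets kept (1326), 1 with 1 class gene only (1068) and 4 without the E14.5 F1 pair (2023). In Eomes-detected cells with 1 class gene only, where fewer genes were called at every step, counts were 4 from E12.5 to E17.5 (1421 of 7567), 2 from E12.5 to E14.5 (432), 0 from E14.5 to E16.0 (4) and 0 from E16.0 to E17.5 (64); the last was 2 without the E14.5 F1 pair (1185) and 2 with at least 2 UMIs (929). In Neurod6-detected cells the E12.5-to-E14.5 count was 4 with 1 class gene only (3621). From E14.5 to E16.0 it was 3 by DESeq2 (2343), 0 with doublets kept (1705), 3 with at least 2000 UMIs (1882), 4 without the 3 E17.5 libraries that stand apart (3201), 6 without the E14.5 F1 pair (3064), 5 with 1 class gene only (2885) and 2 with at least 2 UMIs (1990), against 1 (1741). From E16.0 to E17.5 it was 2 by DESeq2 (1084), 2 with doublets kept (992), 0 with 1 class gene only (658) and 0 with at least 2 UMIs (683), against 1 (849). With no replicate block, Eomes minus Sox2 gave 5 at E16.0 (4409) and 4 at E17.5 (2813), Neurod6 minus Eomes 2 at E12.5 (636) and class by stage 4 (3302). With the library as a block these counts were 8, 9, 8 and 8, the last with 7472 of all genes called. For the others the number of all genes called with the block is not given here.

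Leaving out 1 library at a time, the genotype count at E12.5 in Sox2-detected cells ran from 0 to 1 (1 without Chd8 het M2). Stage counts (E12.5 to E17.5, E12.5 to E14.5, E14.5 to E16.0, E16.0 to E17.5) ran from 7 to 9, 4 to 6, 1 to 4 and 4 to 5 in Sox2-detected, 5 to 8, 4 to 6, 1 to 3 and 1 to 1 in Eomes-detected, and 6 to 8, 7 to 8, 0 to 4 and 0 to 3 in Neurod6-detected cells. Class by stage ran from 7 to 8. Numbers of all genes called in these refits were not set beside the counts. The ranges, and the call gained without Chd8 het M2, are therefore not read against a background.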
